A study of Mus musculus with 8 samples.

Results

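This section describes the mRNA levels of 34 genes of glycolysis and of the hypoxia-inducible factor (HIF) pathway in cells sorted as tumor endothelial cells. The genes were taken by symbol from the 33641 gene symbols of each library, and fall into 5 HIF regulators, 18 glycolytic enzymes including the regulators of phosphofructokinase, and 11 other HIF targets. All 34 were measured in all 8 libraries and all 34 passed the filter on low values, which asked for 4 or more libraries with a TPM of 1 or above. TPM (transcripts per 1000000) is normalized for transcript length and library total, so that levels of different genes can be set side by side.

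Lewis lung carcinoma (LLC) cells, an established mouse lung tumor line, here labelled with mCherry, were placed in the left lobe of the lung in C57Bl/6 mice. Tumors were microdissected at day 21, and CD45-CD31+ cells were sorted by FACS for RNA-seq, which gave 4 control and 4 endFoxf1+/- libraries. The endFoxf1+/- mice were Pdgfb-iCreER; Foxf1 fl/+, and 3 mg tamoxifen by oral gavage at 6 to 8 weeks of age removes exon 1 of 1 allele of Foxf1, a forkhead transcription factor of lung endothelium, wherever the Pdgfb promoter drives Cre. The labels say only control for the comparison group, and the study's text names single transgenic littermates (Foxf1 fl/+ or Pdgfb-Cre) in its account of the model and wild-type C57Bl/6 mice in its account of the tumor experiments, so that the genotype of each control library is not known here. The study names tamoxifen-treated controls for lungs without tumors and shows tamoxifen-treated mice receiving the LLC cells. It does not give the treatment for each control library. All libraries came from LLC tumors, and no endothelium of normal lung is among these libraries. The control libraries are called C1 to C4 and the endFoxf1+/- libraries H1 to H4. The series' design text gives 4 mice a group, but nothing in the labels ties each library to 1 mouse, and the sex of each mouse was not given.

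HIFs are pairs of an oxygen-sensitive alpha subunit, Hif1a or Epas1 (HIF-2 alpha), with the stable partner Arnt. In the presence of oxygen the prolyl hydroxylases of the Egln family modify the alpha subunit, Vhl then binds it and it is degraded; at low oxygen it accumulates and switches on genes for glucose uptake, nearly every step of glycolysis, lactate export, mitophagy, pH control and collagen hydroxylation. Endothelial cells make much of their ATP by glycolysis even when oxygen is present, and Pfkfb3, an activator of the pathway, is known for its part in vessel sprouting. Egln3, Slc2a1, Car9 and Ankrd37 are among the most used readouts of HIF activity.

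HIF binds DNA at a short core, ACGTG or GCGTG, and such a core stood in the promoter windows of many of the 34 genes. A window is the 250 bases before and the 50 bases after an annotated gene start in RefSeq (GRCm38.p6), and 31 of the 34 genes matched; Epas1, Bnip3l and Ndrg1 are named only. On either strand, 35 of the 44 windows of these genes (79.5%) held ACGTG or GCGTG, against 14380 of all 32851 windows (43.8%), where a CACGTG counts once on each strand. With 1 window a gene, it was 24 of 31 (77.4%) against 43.8%. A match describes the letters of the window and was not read as a bound site. Both cores contain CG, and the windows were not matched for CG content or for expression. The genes were also chosen as HIF and glycolysis genes, so the higher share was not read as particular to HIF. The 6 genes on which the results below turn each had a match, and the one nearest to the gene start is shown with the core, or its reverse complement CACGT or CACGC, in capitals, written in the direction of the gene.
Egln3: tgtgcatctcagACGTGagatccaggtttt
Hk2: aatgagcacatcCACGTcactgtccggggc
Pgk1: aaatggaagtagCACGTctcactagtctcg
Eno1: cccacccaattcCACGCgggagtgaggccc
Slc2a1: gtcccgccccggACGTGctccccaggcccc
Car9: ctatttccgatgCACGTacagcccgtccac
Distances are from the RefSeq start. The Egln3 stretch is chr12:54204086-54204115 on the minus strand, and its core starts 229 bases before the gene start. The Hk2 stretch is chr6:82774489-82774518 on the minus strand, 52 bases before the start. The Pgk1 stretch is chrX:106186957-106186986 on the plus strand, 131 bases before the start. These 3 lie in promoter sequence outside the annotated transcript. Eno1 had its core at base 10 of the annotated transcript, in chr4:150236705-150236734 on the plus strand. Slc2a1 and Car9 had theirs 36 and 18 bases before the start, in chr4:119108697-119108726 and chr4:43506996-43507025, both on the plus strand. GENCODE places the starts of these 3 genes differently: Car9 starts earlier, at 43506966, with the stretch inside that transcript, Slc2a1 starts at 119108711, within the core, and Eno1 starts at 150236721, the last base of the core.

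The libraries were not alike in their endothelial marker levels. The geometric mean TPM + 1 of 20 endothelial markers was 401 to 515 in the 4 controls and 27.0 in H3; against the control mean, the level was 83.6% to 107% in the controls, 102% in H1, 106% in H2, 56.6% in H4 and 5.63% in H3, and none of the 20 was at 0 in all libraries. The list of 13 macrophage and monocyte markers stood at 10.0 to 17.9 in controls and at 31.0, 31.5, 192 and 18.7 in H1 to H4, and the 12 proliferation genes at 6.67 to 7.81 in controls and 13.6, 11.9, 29.9 and 7.88 in H1 to H4. The 14 fibroblast and pericyte markers stood at 7.26 to 11.0 in controls and at 11.7, 8.13, 12.4 and 12.7 in H1 to H4, but its genes did not move together. Dcn had 7.64 to 22.7 TPM in controls and 47.2, 36.6, 533 and 82.6 TPM in H1 to H4, and Col3a1 15.6 to 43.4 TPM and 74.4, 44.4, 556 and 118 TPM, all above the controls. Rgs5 and Postn were below every control in all 4, with 10.7 to 18.9 and 24.7 to 41.7 TPM in controls and 0.602 and 3.48 TPM in H3. The 10 platelet genes stood at 37.4 to 69.7 in controls and at 27.8, 20.6, 9.09 and 37.4 in H1 to H4. The 14 epithelial markers stood at 45.7, 49.7, 134 and 46.8 in C1 to C4 and at 40.7, 18.9, 19.0 and 107 in H1 to H4. The 14 lymphocyte markers stood at 2.35 to 3.06 in controls and at 2.96, 3.23, 8.40 and 2.30 in H1 to H4. H3 and H4 also correlated less with the other libraries (median r 0.795 and 0.892, against 0.958 to 0.968 for the rest), and a single transcript, Gm20594, took 21.8% of all TPM in H4 against 5.11% to 11.3% in the other libraries. Foxf1 itself had 213, 285, 296 and 331 TPM in C1 to C4 and 177, 203, 14.04 and 105 TPM in H1 to H4, so that every endFoxf1+/- library lay below every control (exact permutation test, two-sided, p = 0.0286, the smallest p that 4 against 4 allows). Its log2 fold change was -1.68 (SE 0.72, limma adjusted p = 0.790), and -0.83 without H3 and -0.55 without H3 and H4. In bulk RNA, fewer cells of a type and less RNA per cell cannot be told apart. The part of other cells, or of Gm20594, in the results below was not tested. Values are also given without H3 and without both H3 and H4. Leaving these out does not make the groups alike in markers. H1 and H2 stood at 205% and 208% of the control mean for macrophage and monocyte markers, and at 188% and 164% for proliferation genes.

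**Figure D1:**
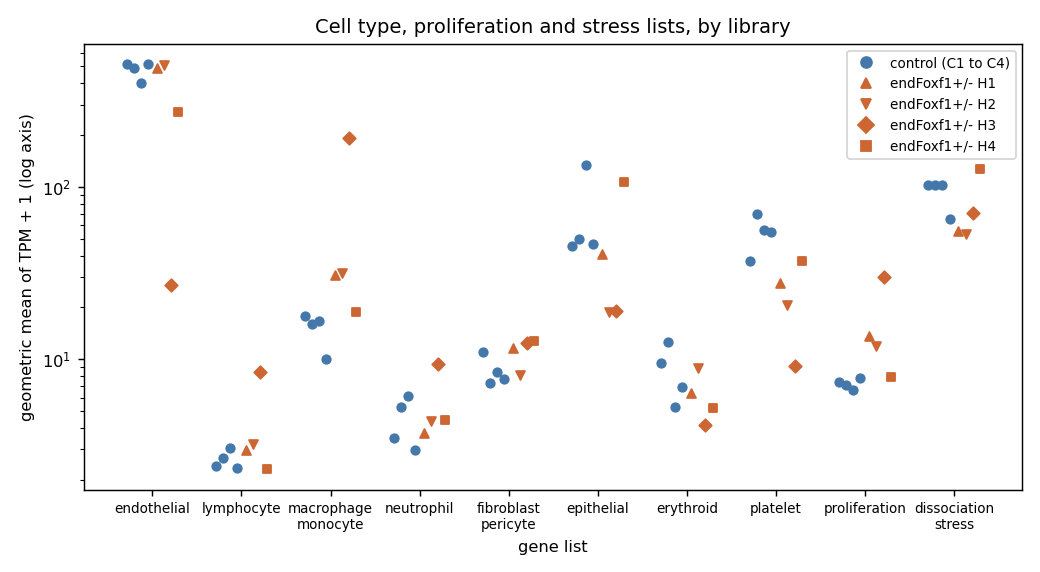
Geometric mean of TPM + 1 (log axis) of 10 gene lists in each library; blue circles are the 4 controls and orange symbols the 4 endFoxf1+/- libraries. The endothelial level of H3 is 27.0 against 401 to 515 in controls, and its macrophage and monocyte level is 192 against 10.0 to 17.9.

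In the endFoxf1+/- libraries the genes of this group lay on the higher side of control more often than not. No single gene passed the test across all genes. Counts and means with all 4 endFoxf1+/- libraries include H3, whose endothelial marker level was 5.63% of the control mean. They are therefore levels of the sorted cells as labelled, not of endothelial cells alone. With limma on log2(TPM + 1), 0 of 14964 genes tested had a Benjamini-Hochberg adjusted p under 0.05 (0%), and so 0 of the 34. At an unadjusted p under 0.05, 5 of the 34 were higher in the endFoxf1+/- libraries (14.7%), against 2.82% of all genes tested. In the other direction, 0 were lower, against 2.77% of all genes. The 5 were Egln3, Hk2, Eno1, Slc2a1 and Car9. Of these, only Egln3 stayed under 0.05 with each library left out in turn. With median-ratio scaling the members under 0.05 were Egln3, Hk2 and Hif1a. The TPM of the groups did not overlap for 5 of the 34, all higher in the endFoxf1+/- libraries, namely Egln3, Hk2, Pgk1, Eno1 and Slc2a1. Of all genes, 2.73% were higher in this way and 2.31% were lower. A positive log2 fold change was found for 24 of the 34 and a negative one for 10, while 32.0% of all genes were positive; with quantile normalization the split of the 34 was 28 to 6 and 49.2% of all genes were positive.

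The medians of the 3 groups are given as a description, and the difference between them was not tested. The median log2 fold change was 0.59 for the glycolytic enzymes, 0.33 for the HIF regulators and 0.19 for the other HIF targets, against -0.17 for all genes tested, which is the common shift against which these values are to be read. In the single libraries, the median deviation of the 18 glycolytic enzymes from the control mean, on the log2 scale, was 0.21 in H1, 0.11 in H2, 1.03 in H3 and 0.46 in H4, while that of all genes was 0.15, 0.13, -0.71 and -0.25. In H1 and H2 the enzymes thus lay close to all genes, and the distance between enzymes and all genes was widest in H3, the library with the fewest endothelial transcripts. The order of the groups changed without H3, where the medians were 0.28 for the enzymes, 0.46 for the regulators and 0.23 for the other targets, with all genes at 0.01. Without both H3 and H4 they were 0.16, 0.24 and 0.08, with all genes at 0.14.

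Counts also depended on the libraries used. Without H3, 7 of the 34 were higher at an unadjusted p under 0.05 (20.6%, against 4.83% of all genes) and 6 did not overlap with control (17.6%, against 6.50%). Without H3 and H4, with H1 and H2 against the 4 controls, it was 5 of 34 by p (14.7%, against 9.87%) and 8 of 34 by non-overlap (23.5%, against 20.2%), so that both shares then stood close to those of all genes. A positive log2 fold change was then found for 24 of 34, against 70.7% of all genes.

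**Figure D2:**
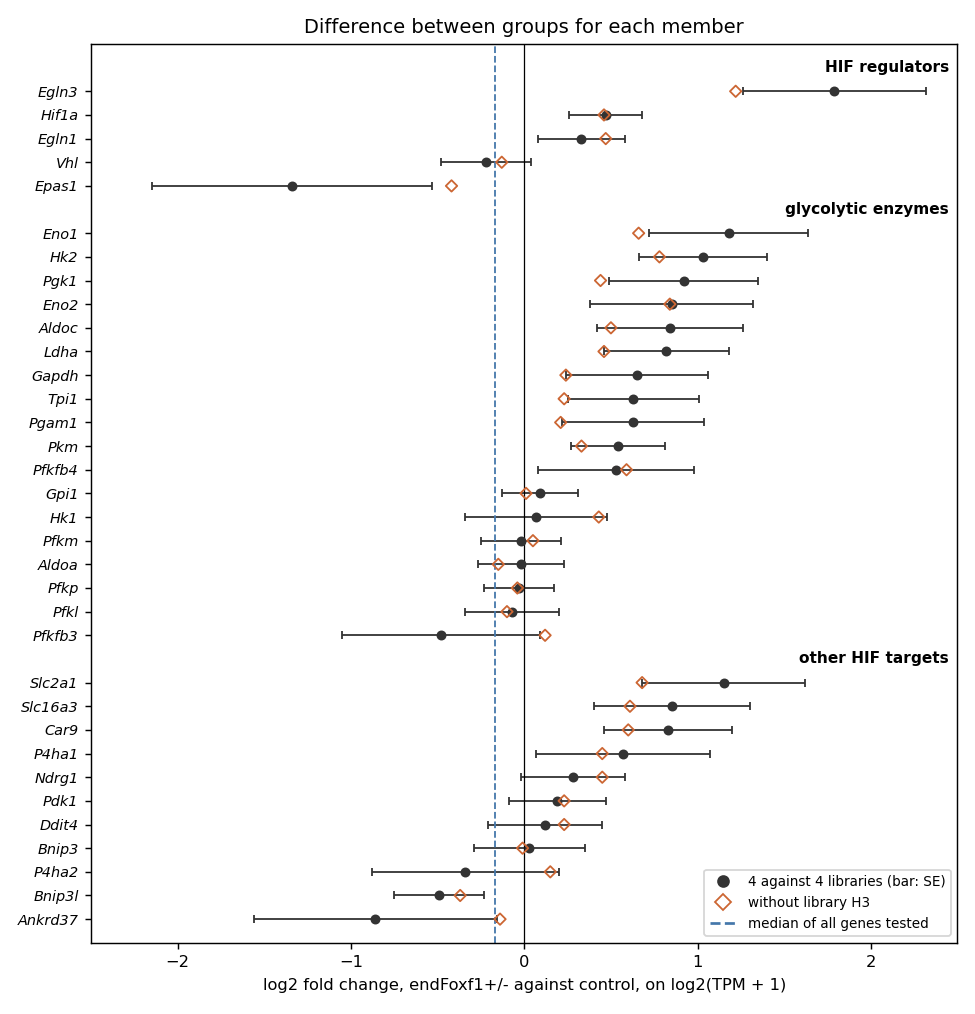
Log2 fold change of each of the 34 genes, endFoxf1+/- against control, on log2(TPM + 1); black circles with SE bars use 4 against 4 libraries, open diamonds leave out H3, and the dashed line is the median of all genes tested (-0.17). Egln3, Eno1, Hk2 and Slc2a1 lie farthest to the right and Epas1 farthest to the left (-1.34, and -0.42 without H3).

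Among the HIF regulators, Egln3, the prolyl hydroxylase that is itself a HIF target, had the largest difference of all 34 genes. It had 1.42, 2.08, 1.56 and 1.73 TPM in C1 to C4 and 5.72, 7.07, 29.8 and 3.49 TPM in H1 to H4. The control values lay close together, and each endFoxf1+/- library was above all 4 of them, H4 by the smallest margin and H3 by the largest. The mean was 1.70 ± 0.287 in control and 11.5 ± 12.3 TPM in endFoxf1+/- (SD, n = 4), a ratio of 6.79; H1 and H2 alone gave 3.77 times the control mean. The log2 fold change was 1.79 (SE 0.53, limma unadjusted p = 0.00761, Benjamini-Hochberg adjusted p = 0.790), with an exact permutation p of 0.0286, and it was 1.22 without H3 and 1.46 without H3 and H4. The gene lies at chr12:54178981-54203860 on the minus strand (GRCm38), with no other annotated gene over its exons.

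Egln1, the main oxygen sensor of this family, was far more abundant in controls, at 33.1 ± 3.99 TPM (SD, n = 4), and differed less. It had 37.1, 29.8, 29.6 and 35.9 TPM in C1 to C4 and 40.9, 37.5, 30.7 and 62.8 TPM in H1 to H4, so that all but H3 were above every control. Its log2 fold change of 0.33 (SE 0.25, limma unadjusted p = 0.231) did not exceed the spread, and was 0.47 without H3 and 0.13 without H4. Egln1 made up 93.5% to 96.3% of the summed TPM of Egln1 and Egln3 in controls, 87.7% and 84.1% in H1 and H2, 94.7% in H4 and 50.7% in H3.

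The alpha subunits differed in direction. In the control libraries Epas1 was the most abundant of the 34 genes, and it ranked between 38 and 56 among all symbols. It had 2314, 2031, 1761 and 1967 TPM in C1 to C4. H1 and H2 had 1830.4 and 2078 TPM, within the control range, while H4 had 891 and H3 had 116 TPM. Its log2 fold change of -1.34 (SE 0.81, limma unadjusted p = 0.129) shrank to -0.42 without H3 and to -0.04 without H3 and H4. The endothelial markers were low in the same 2 libraries: H3 held 5.63% of the control mean of the marker level and H4 held 56.6%.

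Hif1a, the subunit found in nearly every cell type, had 41.6, 44.2, 31.6 and 37.8 TPM in C1 to C4 and 52.8, 43.8, 54.7 and 65.3 TPM in H1 to H4. It was above all controls in 3 of the 4 endFoxf1+/- libraries, and H2 overlapped with control. Its log2 fold change was 0.47 (SE 0.21, limma unadjusted p = 0.0557, adjusted p = 0.790) and 0.31 without H3 and H4. Of the summed TPM of both alpha subunits, Epas1 took 97.9% to 98.2% in controls, 97.2% and 97.9% in H1 and H2, 93.2% in H4 and 68.0% in H3. Vhl, the subunit of the ubiquitin ligase that recognises hydroxylated HIF, was between 7.46 and 14.3 TPM in all 8 libraries with overlapping groups (log2 fold change -0.22).

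**Figure D3:**
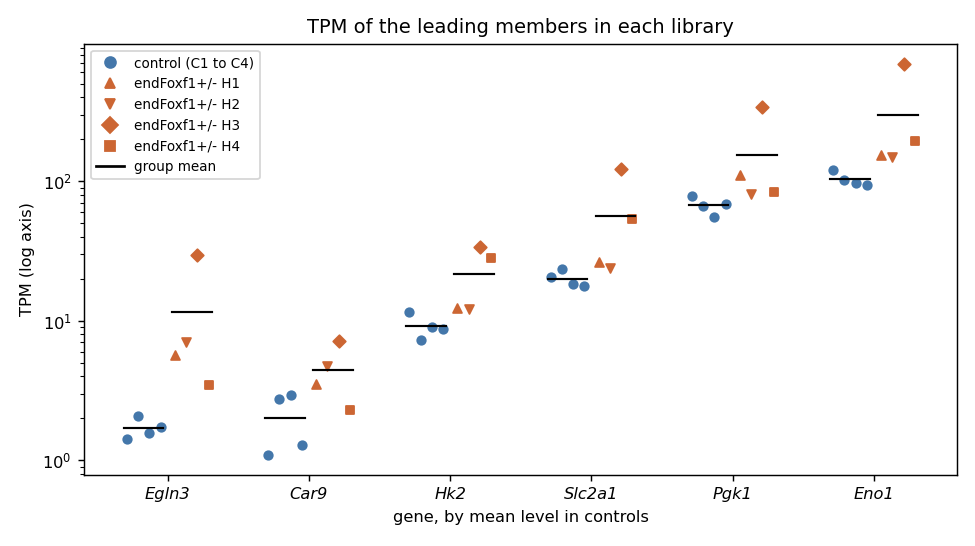
TPM (log axis) of the 6 genes with no overlap between groups or an unadjusted p under 0.05, in each of the 4 control (blue) and 4 endFoxf1+/- (orange) libraries; black lines are group means. H3 is the highest library for all 6 genes, and H1 and H2 lie above every control for Egln3, Car9, Hk2, Slc2a1, Pgk1 and Eno1.

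Glucose enters through Slc2a1 (GLUT1), the main transporter of endothelium, which had 20.5, 23.3, 18.4 and 17.7 TPM in C1 to C4 and 26.4, 23.8, 122 and 53.4 TPM in H1 to H4. The groups did not overlap, but H2 was barely above C2, the highest control, while H3 and H4 stood far above. The mean was 19.97 ± 2.48 in control and 56.4 ± 45.7 TPM in endFoxf1+/- (SD, n = 4), and the log2 fold change 1.15 (SE 0.47, limma unadjusted p = 0.0351, adjusted p = 0.790; exact permutation p = 0.0286). It was 0.68 without H3 and 0.32 without H3 and H4. The limma unadjusted p of Slc2a1 was above 0.05 without any one of C1, C3, C4 and H4, at up to 0.0809. The gene spans chr4:119108711-119137983.

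Hexokinases trap glucose inside the cell as glucose 6-phosphate. Hk2, the inducible isoenzyme, had 11.5, 7.32, 9.07 and 8.75 TPM in C1 to C4 and 12.4, 12.1, 33.9 and 28.2 TPM in H1 to H4, with no overlap. H1 and H2 lay just above the highest control, C1, and H3 and H4 stood far higher. The mean of 21.7 ± 11.1 TPM was 2.36 times the control mean of 9.16 ± 1.73 TPM (SD, n = 4). On the log2 scale the difference was 1.03 (SE 0.37, limma unadjusted p = 0.0190, adjusted p = 0.790), with an exact permutation p of 0.0286. It was 0.78 without H3 and 0.40 without H3 and H4. The limma unadjusted p of Hk2 was 0.0527 without C2 and 0.0524 without H4.

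Hk1, the constitutive isoenzyme, had 52.4, 39.4, 28.5 and 43.1 TPM in C1 to C4 and 46.3, 42.1, 18.9 and 82.00 TPM in H1 to H4. H3 was the lowest and H4 the highest of all 8 libraries, and the log2 fold change was 0.07 (SE 0.41). Hk1 made up 75.8% to 84.3% of the summed TPM of both in controls, 78.8%, 77.6% and 74.4% in H1, H2 and H4, and 35.9% in H3, the one library in which Hk2 was the more abundant. Gpi1, which turns glucose 6-phosphate into fructose 6-phosphate, was between 166 and 249 TPM in all libraries (log2 fold change 0.09).

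The 3 isoforms of phosphofructokinase, the committed step, had log2 fold changes close to 0. Pfkp had 54.5, 42.7, 39.9 and 48.7 TPM in C1 to C4 and 48.9, 45.4, 46.3 and 40.8 TPM in H1 to H4. Pfkl had 39.8, 33.6, 24.6 and 19.7 TPM in C1 to C4 and 30.9, 28.9, 28.9 and 20.6 TPM in H1 to H4. Every endFoxf1+/- value of both genes lay inside the control range.

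Pfkm, the muscle isoform, had 9.27, 10.8, 9.65 and 8.93 TPM in C1 to C4 and 9.59, 8.33, 7.97 and 12.5 TPM in H1 to H4. The log2 fold changes of Pfkl, Pfkm and Pfkp were -0.07, -0.02 and -0.03, and all 3 turned positive, by at most 0.16, under quantile normalization and median-ratio scaling. The order of the isoforms was Pfkp, then Pfkl, then Pfkm in all 8 libraries. Pfkp made up 49.0% to 63.0% of their sum in controls and 54.7% to 55.7% in the endFoxf1+/- libraries. The exons of Pfkm and Pfkp overlap those of Senp1 and Pitrm1 on the other strand, and strand use in counting was not given in the sources used here.

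The bifunctional enzymes that set the level of fructose 2,6-bisphosphate, the activator of phosphofructokinase, differed between libraries more than between groups. Pfkfb3 had 130.4, 60.9, 58.2 and 77.4 TPM in C1 to C4 and 69.99, 69.7, 14.9 and 123 TPM in H1 to H4; only H3 lay outside the control range, below it. Its log2 fold change was -0.48 (SE 0.57, limma unadjusted p = 0.421) and 0.12 without H3. Pfkfb4, a hypoxia-inducible relative, had 4.45, 5.05, 14.2 and 6.36 TPM in C1 to C4 and 7.998, 6.63, 8.75 and 22.7 TPM in H1 to H4, with H4 alone above all controls (log2 fold change 0.53, SE 0.45, 0.17 without H4). Pfkfb3 took 80.4% to 96.7% of the sum of both in controls and 63.0% in H3.

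Aldolase cleaves the phosphorylated fructose. Aldoa had 424, 427, 342 and 321 TPM in C1 to C4 and 388, 345, 495 and 287 TPM in H1 to H4, with H3 above and H4 below the control range. Its log2 fold change was -0.02 (SE 0.25) and turned to 0.06 under quantile normalization and 0.17 under median-ratio scaling. Aldoc, the brain isoenzyme, had 1.29, 1.62, 2.73 and 1.14 TPM in C1 to C4 and 1.98, 1.98, 8.42 and 4.79 TPM in H1 to H4; H3 and H4 were above all controls and H1 and H2 were not (log2 fold change 0.84, SE 0.42, 0.50 without H3). Aldoa held at least 98.3% of the summed TPM of both in every library.

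Below aldolase, in the part of the pathway that yields ATP, the pattern was shared by Tpi1, Gapdh, Pgk1, Pgam1, Eno1, Pkm and Ldha: H1 and H2 together at 1.10 (Gapdh) to 1.45 (Eno1) times the control mean, H3 at 2.25 (Pkm) to 6.70 (Eno1) times and H4 at 0.864 (Pgam1) to 1.87 (Eno1) times. Gapdh, the second most abundant of the 34 genes in controls, had 831, 1079, 889 and 909 TPM in C1 to C4 and 1025, 1018, 3363 and 1241 TPM in H1 to H4. H1 and H2 lay inside the control range, H4 above it and H3 at 3.63 times the control mean. On the log2 scale the groups differed by 0.65 (SE 0.41, limma unadjusted p = 0.152), and by 0.24 without H3. Gapdh is often taken as a constant reference gene, and H3 held 3363 TPM of it. Actb, another such gene, had 1771 to 2233 TPM in controls. It had 2084, 1831 and 2099.6 TPM in H1 to H3 and 3227 TPM in H4, above every control.

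Pgk1, which makes the first ATP of the pathway, had 78.8, 65.9, 55.2 and 68.4 TPM in C1 to C4 and 110.2, 81.3, 341 and 83.8 TPM in H1 to H4. The groups did not overlap, though H2 and H4 exceeded C1 by little. The mean was 67.1 ± 9.68 in control and 154 ± 126 TPM in endFoxf1+/- (SD, n = 4). The difference in log2 terms was 0.92 (SE 0.43, limma unadjusted p = 0.0608, adjusted p = 0.790; exact permutation p = 0.0286), 0.44 without H3 and 0.50 without H3 and H4.

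Eno1, the enolase of most tissues, had 121, 102, 97.4 and 93.7 TPM in C1 to C4 and 153, 148, 695 and 194 TPM in H1 to H4. Each endFoxf1+/- library was above all controls, with H1 and H2 close to each other and H3 far above the rest. The mean was 104 ± 12.3 in control and 297 ± 266 TPM in endFoxf1+/- (SD, n = 4), a ratio of 2.87, and the ratio of H1 and H2 alone to control was 1.45. The log2 fold change was 1.18 (SE 0.46, limma unadjusted p = 0.0295, adjusted p = 0.790), with an exact permutation p of 0.0286. It was 0.66 without H3 and 0.54 without H3 and H4. The limma unadjusted p of Eno1 was above 0.05 without any one of C2, C3 and C4, at up to 0.0628. Eno2, the neuronal isoenzyme, was low in all libraries, with 2.11, 0.706, 0.334 and 0.584 TPM in C1 to C4 and 0.992, 1.26, 2.38 and 6.76 TPM in H1 to H4, so that H4 was at 7.23 times the control mean and H3 at 2.55 times. Eno1 held at least 96.6% of the sum of both.

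Ldha, which reduces pyruvate to lactate and so restores NAD, had 277, 251, 211 and 214 TPM in C1 to C4 and 398, 262, 877 and 334 TPM in H1 to H4. All but H2 were above every control. This gave a log2 fold change of 0.82 (SE 0.36, limma unadjusted p = 0.0502, adjusted p = 0.790; exact permutation p = 0.0571), or 0.46 without H3. The remaining enzymes of this stretch, Tpi1, Pgam1 and Pkm, had log2 fold changes of 0.63, 0.63 and 0.54, or 0.23, 0.21 and 0.33 without H3. H3 was at 3.62, 3.75 and 2.25 times their control means; H1 and H2 together were at 1.22, 1.33 and 1.19 times. Named copies of Gapdh, Pgk1, Pgam1, Eno1 and Ldha elsewhere in the genome were at 0.717 TPM or less in every library.

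**Figure D4:**
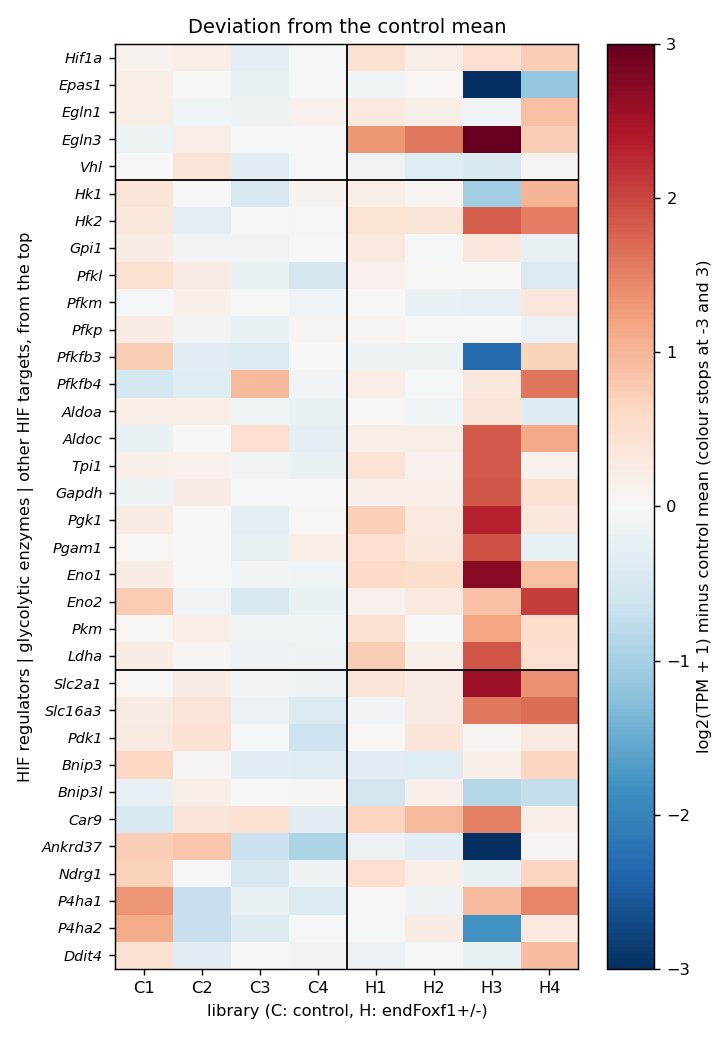
Deviation of log2(TPM + 1) from the control mean for the 34 genes (rows) in the 8 libraries (columns), with red above and blue below control; horizontal lines part HIF regulators, glycolytic enzymes and other HIF targets. H3 is red from Aldoc to Ldha and at Egln3, Hk2, Slc2a1, Slc16a3 and Car9, and darkest blue at Epas1, Pfkfb3, Ankrd37 and P4ha2.

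Of the other HIF targets, Car9, a carbonic anhydrase at the cell surface that buffers pH, had 1.09, 2.77, 2.92 and 1.29 TPM in C1 to C4 and 3.53, 4.72, 7.22 and 2.30 TPM in H1 to H4. H1, H2 and H3 were above all controls, and H4 fell among them. The mean was 2.02 ± 0.961 in control and 4.44 ± 2.10 TPM in endFoxf1+/- (SD, n = 4); the log2 fold change was 0.83 (SE 0.37, limma unadjusted p = 0.0481, adjusted p = 0.790; exact permutation p = 0.0857), 0.60 without H3 and 0.81 without H3 and H4. The unadjusted p of Car9 was above 0.05 without any one of C1, C4, H1, H2 and H3, at up to 0.131. Car9 and Egln3 were thus the genes of this set whose difference in H1 and H2 alone, at 2.05 and 3.77 times the control mean, was largest.

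Ankrd37, a small ankyrin repeat protein used as a HIF readout, did not go the same way. It had 212, 224, 80.8 and 65.1 TPM in C1 to C4 and 111, 101, 14.8 and 133 TPM in H1 to H4. The controls fell into 2 high and 2 low values, H1, H2 and H4 lay between them and H3 lay below all. Here the log2 fold change was -0.86 (SE 0.70, limma unadjusted p = 0.252) and -0.14 without H3. Its exons overlap those of Ufsp2 and Lrp2bp on the other strand, and strand use in counting is not known.

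Bnip3l (NIX), a receptor for mitophagy, had a lower mean in the endFoxf1+/- libraries. It had 152, 206, 178 and 192 TPM in C1 to C4 and 124, 202, 99.2 and 109.9 TPM in H1 to H4, with 3 of 4 below every control and H2 among them. A log2 fold change of -0.49 (SE 0.26, limma unadjusted p = 0.0950, adjusted p = 0.790) resulted, and one of -0.19 without H3 and H4. Its relative Bnip3 was between 39.1 and 80.2 TPM with overlapping groups. Bnip3l held 66.0% to 83.1% of their sum in controls and 57.8% to 83.7% in the endFoxf1+/- libraries.

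P4ha1 and P4ha2, the catalytic subunits of collagen prolyl hydroxylase, parted in H3. P4ha1 had 102, 24.8, 34.8 and 29.8 TPM in C1 to C4 and 41.5, 36.04, 77.9 and 113 TPM in H1 to H4. P4ha2 had 93.3, 26.01, 32.4 and 40.9 TPM in C1 to C4 and 40.8, 49.8, 11.3 and 51.9 TPM in H1 to H4. C1 was far above the other controls for both genes, the groups overlapped for both, and the log2 fold changes were 0.57 (SE 0.50) and -0.34 (SE 0.54). P4ha1 stood at 1.01 without C1 (limma unadjusted p = 0.0405), 0.27 without H4 and -0.06 without H3 and H4. P4ha1 made up 42.1% to 52.3% of their sum in controls, 50.4% and 42.0% in H1 and H2, 68.5% in H4 and 87.3% in H3.

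The remaining targets overlapped between groups. Slc16a3 (MCT4), the lactate exporter, was at 1.89 to 4.08 TPM in controls and at 2.72 and 3.61 TPM in H1 and H2, against 10.7 and 11.5 TPM in H3 and H4 (log2 fold change 0.85, SE 0.45, 0.08 without H3 and H4). Pdk1, a kinase that inhibits pyruvate dehydrogenase, was between 6.96 and 15.5 TPM in all libraries. Ndrg1, a stress-responsive gene, lay between 34.7 and 79.1 TPM, and Ddit4 (REDD1), an inhibitor of mTORC1, between 6.29 and 16.2 TPM. The log2 fold changes of these last 3 were 0.19, 0.28 and 0.12, with 0.12 without C3 for Ndrg1.

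**Figure D5:**
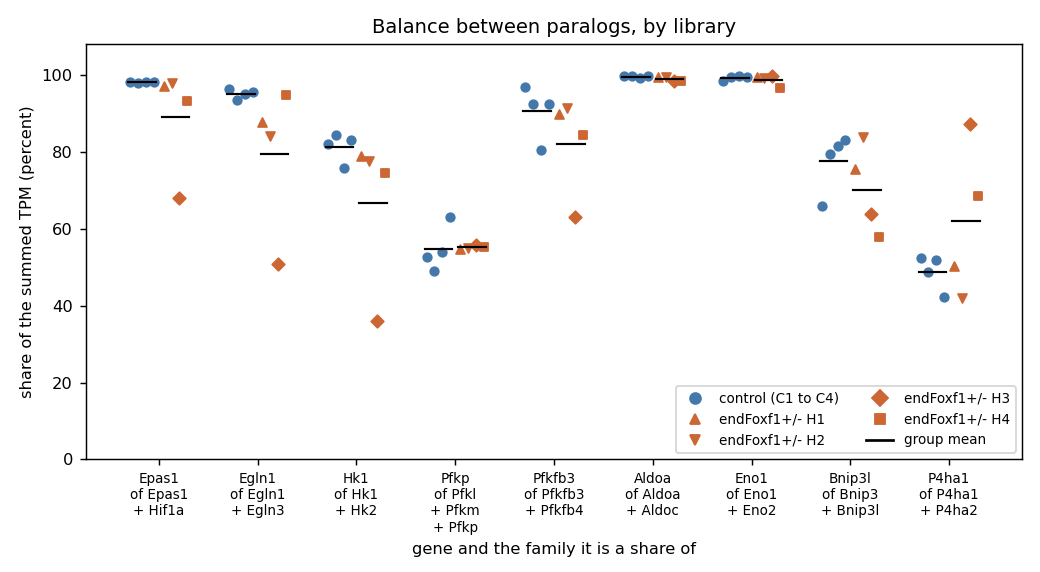
Share of 1 gene in the summed TPM of its family (percent) in each control (blue) and endFoxf1+/- (orange) library; black lines are group means. H3 departs from every other library for Epas1 (68.0%), Egln1 (50.7%), Hk1 (35.9%), Pfkfb3 (63.0%) and P4ha1 (87.3%), while Aldoa and Eno1 stay at 96.6% or more.

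In controls the levels covered a wide range. Epas1 had 2018 ± 228 TPM and Gapdh 927 ± 107 TPM (SD, n = 4), followed by Aldoa with 378 ± 54.98 and Ldha with 238 ± 31.8 TPM. Gpi1, Pkm and Bnip3l came next at 197 ± 22.9, 196 ± 21.7 and 182 ± 22.8 TPM, which do not differ beyond their spread. At the other end, Egln3 and Aldoc stood at 1.70 ± 0.287 and 1.69 ± 0.719 TPM and Eno2 at 0.935 ± 0.802 TPM, so that the log2(TPM + 1) scale understates the fold change of these 3 genes. Steps with near-equal levels were Tpi1 and Pfkfb3 (80.1 ± 9.33 and 81.7 ± 33.6 TPM) and P4ha1 and P4ha2 (47.9 ± 36.5 and 48.2 ± 30.7 TPM).

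A wider look at both pathways used lists of further genes. Of 34 further genes of glycolysis and pyruvate use, 26 were tested, with a median log2 fold change of -0.08 against -0.17 for all genes. By unadjusted p, 2 were higher (7.69%, against 2.82% of all genes) and 1 was lower (3.85%, against 2.77%). Without overlap, 1 was higher (3.85%, against 2.73%) and 2 were lower (7.69%, against 2.31%), counts too small to set this list apart from all genes. Bpgm, which makes the 2,3-bisphosphoglycerate of red cells, had 23.8, 40.8, 38.7 and 40.8 TPM in C1 to C4 and 17.8, 18.4, 7.44 and 13.5 TPM in H1 to H4 (log2 fold change -1.32, SE 0.32, limma unadjusted p = 0.00248, adjusted p = 0.790). All 4 endFoxf1+/- values were below all controls, and the log2 fold change was -0.92 without H3 and H4. The 9 erythroid markers found stood at 5.31 to 12.6 in controls and 4.16 to 8.86 in the endFoxf1+/- libraries (geometric mean of TPM + 1). The groups overlapped.

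The others named by the same rule were smaller or rested on H3 and H4. Slc16a1 (MCT1), a lactate and pyruvate carrier, was at 1.10 to 2.69 TPM in controls and at 3.13, 1.89, 20.4 and 10.7 TPM in H1 to H4 (log2 fold change 1.49, 0.39 without H3 and H4). Pgm2, whose symbol and that of Pgm1 each stand as an older name of the other in RefSeq, so that the enzyme meant is uncertain, was at 5.84 to 8.07 TPM in controls and 9.26, 8.56, 11.8 and 21.9 TPM in H1 to H4 (log2 fold change 0.77, limma unadjusted p = 0.0367). Pdk2, a kinase that inhibits pyruvate dehydrogenase, was below all controls in all 4 libraries, narrowly so in H1 and H4 with 12.6 and 12.9 TPM against a lowest control of 13.1 TPM.

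Of 45 further genes of the HIF pathway found in the files, 40 were tested, with a median log2 fold change of 0.05 against -0.17 for all genes. By unadjusted p, 2 of the 40 were higher (against 2.82% of all genes) and 0 lower (against 2.77%). Without overlap, 2 of the 40 were higher (against 2.73%) and 0 lower (against 2.31%). By unadjusted p, 5 of the 40 were higher under quantile normalization (12.5%), a larger share than that of all genes (524 of 14964). Without H3 and H4, 8 of the 40 were higher, also a larger share than the 9.87% of all genes. These differences in share were not tested. Angptl4, a secreted inhibitor of lipoprotein lipase and a target of HIF and PPAR factors, had 3.20, 2.85, 3.33 and 4.53 TPM in C1 to C4 and 6.37, 6.44, 23.9 and 15.04 TPM in H1 to H4. Every endFoxf1+/- library was above every control, with a log2 fold change of 1.46 (SE 0.42, limma unadjusted p = 0.00617, adjusted p = 0.790) and of 0.74 without H3 and H4. Ero1l, an oxidase of the endoplasmic reticulum, did not overlap either. It was at 32.9 to 36.8 TPM in controls and 38.4 to 41.5 TPM in the endFoxf1+/- libraries (log2 fold change 0.18). Cxcr4, a chemokine receptor of endothelial tip cells, was at 15.9 to 22.7 TPM in controls and 32.6, 30.4, 20.6 and 51.4 TPM in H1 to H4 (log2 fold change 0.70, 0.68 without H3 and H4). Vegfa, the best known angiogenic target of HIF, had 207 to 399 TPM in controls, 331 and 375 TPM in H1 and H2, 241 in H4 and 29.9 TPM in H3 (log2 fold change -0.69, 0.14 without H3 and 0.32 without H3 and H4); it is named for its role and was chosen after its values were seen.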

How the data were processed

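For each of the 8 libraries the authors deposited TPM per gene symbol, a value normalized for transcript length and library total; each library sums to 1000000. The submitters' processing notes name TopHat, Cufflinks, Subread and DESeq2 and the builds GRCm38 and mm10, without roles. TPM keep no read numbers, so the only error here is the variation among libraries. The TPM were analysed as log2(TPM + 1) with limma 3.58.1 in R 4.3.3 (lmFit, eBayes with trend, no covariate) over 14964 genes, adjusted by Benjamini-Hochberg (threshold 0.05); DESeq2 needs counts and was not run. Exact permutation tests were two-sided over 70 assignments. On simulated data for this comparison over 14964 genes, the adjusted threshold was passed by 54 of 100 genes changed by 2 (log2) and by 11 of 100 changed by 1. It was also passed by 6 unchanged genes. The simulated noise was independent between genes, with the same spread in all 8 libraries. It held no library that stood apart as H3 did, so these rates are not the power of the real data. Replicate numbers follow accession order. The members and lists were chosen with earlier results of these data known. Described in full were members without overlap or with an unadjusted p under 0.05, per group the 3 of highest mean TPM and the largest absolute log2 fold change, and paralog families. Positions come from GENCODE vM21. Alternatives were other pseudocounts, filters, normalizations and variance models, array weights, libraries left out, and levels relative to endothelial markers.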

Additional observations from a re-analysis of the deposited data

Results flagged for a closer look

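In 6 of 76 groups of 4 values, 1 library stood apart from the other 3 by more than Dixon's 95% critical ratio of gap to range; chance gives about 1 in 20. Of the genes described in full, H3 stood apart among the endFoxf1+/- libraries for Gapdh (ratio 0.834, log2(TPM + 1) 11.72 against 10.28 in the nearest library), Ankrd37 (0.872, 3.98 against 6.67) and P4ha2 (0.838, 3.62 against 5.38). H4 did so for Pfkl (0.835, 4.43 against 4.90). Of the gene lists, the epithelial markers were high in C3 (0.922) and the dissociation stress genes low in C4 (0.979) among the controls.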

How the results depend on the processing

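Depth is unknown for these TPM, and 4 libraries a group allow no exact p under 0.0286. No paired analysis was possible because the labels carry no replicate numbers shared between the groups. Genes with an adjusted p under 0.05 numbered 0 of 14964, 836 at an unadjusted p, and 148 with array weights, which gave H3 and H4 weights of 0.0643 and 0.178; they numbered 3 without H3 and H4, 1 relative to endothelial markers and 0 to 1 with each library left out in turn. Array weights also brought 1 of the 34 past the threshold, Egln3 (log2 fold change 1.36, adjusted p 0.0284); where it was tested (a minimum TPM of 5 removed it) its adjusted p ran from 0.0284 to 0.975. Of the 34, 5 had an unadjusted p under 0.05 (14.7%, against 5.59% of all genes). It was 3 of the 29 tested with a minimum TPM of 5 (10.3%, against 4.76%), 3 with median-ratio scaling (8.82%, against 6.70%) and 12 with array weights (35.3%, against 19.2%). With each library left out it ran from 2 without C4 (5.88%, against 3.20%) to 10 without H2 (29.4%, against 10.8%), and was 3 without C2 and without C3 (8.82%, against 2.85% and 3.26%). The median of the glycolytic enzymes was 0.23 with array weights and 0.16 without H3 and H4. Relative to endothelial markers, where the median of all genes was 1.04, the medians were 1.53 for HIF regulators, 1.79 for glycolytic enzymes and 1.40 for other targets. Leaving out each library gave medians of 0.13 to 0.46, 0.28 to 0.72 and 0.09 to 0.28. Of the genes described in full, directions reversed for those named next. Under quantile normalization Pfkl, Pfkm, Pfkp and Aldoa became 0.08, 0.09, 0.13 and 0.06, and under median-ratio scaling 0.12, 0.15, 0.16 and 0.17. With array weights Pfkl, Pfkp and P4ha2 became 0.10, 0.07 and 0.20. Without H3 and H4 Pfkl, Pfkp, P4ha1 and P4ha2 became 0.07, 0.03, -0.06 and 0.09. Relative to endothelial markers Pfkl, Pfkm, Pfkp, Pfkfb3, Aldoa, Bnip3l, Ankrd37 and P4ha2 became 1.14, 1.18, 1.18, 0.72, 1.19, 0.72, 0.35 and 0.87; this scaling moved the median of all genes from -0.17 to 1.04, and Pfkfb3, Bnip3l, Ankrd37 and P4ha2 lay below that median. With each library left out, the values ran from -0.25 to 0.43 for Hk1, -0.24 to 0.09 for Pfkl, -0.15 to 0.05 for Pfkm, -0.09 to 0.05 for Pfkp, -0.86 to 0.12 for Pfkfb3, -0.15 to 0.11 for Aldoa and -0.57 to 0.15 for P4ha2. Of the other members, Bnip3 (0.03) was positive in 13 of 19 settings and as low as -0.34 (without H3 and H4), Ddit4 (0.12) in 16 (-0.15 without H4), Pdk1 (0.19) in 18 (-0.02 without C4) and Vhl (-0.22) in 1, relative to endothelial markers. The cause of these changes was not tested. Foxf1, at -1.68, stayed negative in all, from -0.83 (without H3) to -2.08 (without H2) with 1 library left out, but was -0.70 with array weights, -0.55 without H3 and H4 and -0.47 (SE 0.64) relative to endothelial markers.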
